A study of Mus musculus with 6 samples.

Results

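The genes described are the 10 mouse genes Psmb8, Psmb9, Psmb10, Psme1, Psme2, Tap1, Tap2, Tapbp, Erap1 and Nlrc5, which encode the inducible parts of the proteasome and the machinery that loads its peptides onto class I molecules of the major histocompatibility complex (MHC). They were chosen by name from the 53715 genes of the deposited count table, where each symbol matched 1 row. All 10 were among the 16721 genes with enough counts to be tested. The 6 bulk libraries held poly(A) RNA of the piriform cortex, a primary olfactory area, of Gad2-Cre mice, in which Cre recombinase is made in cells that express the GABA-synthesising enzyme Gad2. The Caspase3 group (3 libraries) had received AAV-DIO-Caspase3, an adeno-associated virus whose caspase 3, a protease that executes apoptosis, is switched on by Cre, into the piriform cortex of 1 side. The GFP group (3 libraries) had received AAV-DIO-GFP in the same way, so every library came from a virus-injected Cre mouse and none from an uninjected one. Age, sex, hemisphere sampled and time after injection are not given in the labels used here. Whether replicate libraries stem from different mice is not stated, so the p-values reflect only how much these libraries vary, part of which may be technical.

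The proteasome is the barrel-shaped protease that degrades ubiquitin-tagged proteins. Cells exposed to interferon replace its catalytic subunits Psmb6, Psmb7 and Psmb5 by Psmb9, Psmb10 and Psmb8, and the barrel is then called the immunoproteasome; Psme1 and Psme2 form a ring that caps it. The resulting peptides are pumped into the endoplasmic reticulum by the transporter made of Tap1 and Tap2, trimmed by the aminopeptidase Erap1 and placed on class I molecules with the help of tapasin, the product of Tapbp. Nlrc5 is a transactivator of class I genes and of several genes of this machinery. In healthy brain these genes are known mainly from microglia and endothelial cells, and neurons carry little class I.

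The depth and composition of the libraries bear on all results below. Total counts were between 20424581 and 26268377, so that 1 count corresponded to 0.0394 to 0.0474 CPM (read counts scaled to library size with TMM factors). Gad2, the gene whose cells were targeted, was at 26.7, 38.5 and 38.0 CPM in Caspase3 libraries 1, 2 and 3 and at 92.4, 118.0 and 103.7 CPM in GFP libraries 1, 2 and 3, and thus lower in the Caspase3 group (log2 fold change -1.60 ± 0.15, SE; edgeR adjusted p = 0.00371). From the list of excitatory neuron markers, the synaptic gene Snap25 stood at 3004 ± 305 and 3615 ± 593 CPM (SD, n = 3 each). Snap25 is not limited to excitatory neurons and does not tell brain regions apart. The library GFP 3 stood apart in its summed striatal markers (Drd2, Adora2a, Rgs9 and Drd1), at 215.5 CPM against 16.3 to 41.0 CPM in the other 5 libraries. Results are therefore also given without it, and without Caspase3 1, which held the highest value of all 10 members. Caspase3 1 was the highest library for 27.1% of all tested genes and for 89.6% of the 249 other genes called higher.

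The members lie on 4 chromosomes (GRCm38 coordinates of the deposited table) and are all annotated as protein-coding. Psmb9 (chromosome 17, 34181988 to 34187764, minus strand), Tap1 (34187553 to 34197225, plus strand), Psmb8 (34197721 to 34201454, plus strand) and Tap2 (34203527 to 34216321, plus strand) are neighbours inside the MHC, and Tapbp lies on the same chromosome at 33915899 to 33929288. Psme1 (55578123 to 55581529, plus strand) and Psme2 (55587441 to 55591113, minus strand) are neighbours on chromosome 14. Psmb10 (105935735 to 105938444) and Nlrc5 (94434356 to 94527272) are on chromosome 8 and Erap1 (74639568 to 74693201) on chromosome 13. Of the 16 other tested genes between the start of Tapbp and the end of Tap2, 1 rose in the Caspase3 group (the class I heavy chain H2-K1), none fell and the median log2 fold change was 0.17.

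RefSeq promoter windows (GRCm38.p6, 250 bases before to 50 after the annotated start, 300 bases) were matched for 8 of the 10 members, not for Tap2 or Nlrc5. They were searched on both strands for the core of the interferon-stimulated response element (GAAA, any 2 bases, GAAA), TTCNNNGAA (core of the gamma-activated site, bound by STAT dimers), TGACGTCA (the cyclic AMP response element) and GGGGCGGGG (a GC box). The stretches that hold a match are printed because they show which members carry these letters near the start. Each is 30 bases of the gene's own strand, 5′ to 3′, with the match in capitals.
Erap1: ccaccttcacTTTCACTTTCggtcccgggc
Psme1: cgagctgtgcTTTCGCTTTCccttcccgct
Psmb8: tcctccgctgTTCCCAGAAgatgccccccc
Psmb9: gcgcgatgatGGGGCGGGGcctcagtctgc
Tap1: cagactgaggCCCCGCCCCatcatcgcgca
The stretches are Erap1 at chr13:74639839-74639868 (plus strand), Psme1 at chr14:55578493-55578522 (plus strand), Psmb8 at chr17:34198088-34198117 (plus strand), Psmb9 at chr17:34187367-34187396 (minus strand) and Tap1 at chr17:34187368-34187397 (plus strand). Erap1 and Psme1 hold the interferon-stimulated core, beginning 4 bases before the start and at base 10 after it, and this core occurs in 3.44% of all 32851 windows. Psmb8 holds the gamma-activated core, beginning 97 bases before its start, which occurs in 8.30% of windows. The GC box of Psmb9 and of Tap1 is 1 site (34187378 to 34187386) read from opposite strands, since their RefSeq starts (34187330 and 34187556) face away from each other with 225 bases between them. All 225 bases lie in exons of the GENCODE annotation, and in the deposited table the genes overlap. A GC box occurs in 11.4% of windows. None of the member windows held the cyclic AMP element (1.79% of windows). A match is a description of the letters, not evidence that a factor binds there.

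Of the 10 members, 6 rose in the Caspase3 group (Psmb8, Psmb9, Psme2, Tap1, Tapbp and Nlrc5), none fell and 4 did not pass (Psmb10, Psme1, Tap2 and Erap1), at an adjusted p under 0.05 in edgeR's quasi-likelihood test with Benjamini-Hochberg adjustment over all genes. Across all tested genes, 1.53% were called higher and 0.114% lower. An unadjusted edgeR p under 0.05, counted for the lists below, was found for 1777 of the 16721 tested genes. The median log2 fold change was 1.13 over the members and 0.00 over all tested genes. In all 10 members each Caspase3 library lay above each GFP library; the groups were separated in this direction in 8.96% of all tested genes. The calls depended on which libraries were in the fit, while all 10 log2 fold changes stayed positive. Without GFP 2 none of the members passed (0.0874% of all genes were called higher in that fit), without GFP 3 only Tap1 (0.767%) and without GFP 1 only Tap1 and Nlrc5 (1.17%), at median log2 fold changes of 1.08, 1.10 and 1.22. Without Caspase3 1 the same 6 passed (1.47%), at a median of 0.88.

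**Figure D1:**
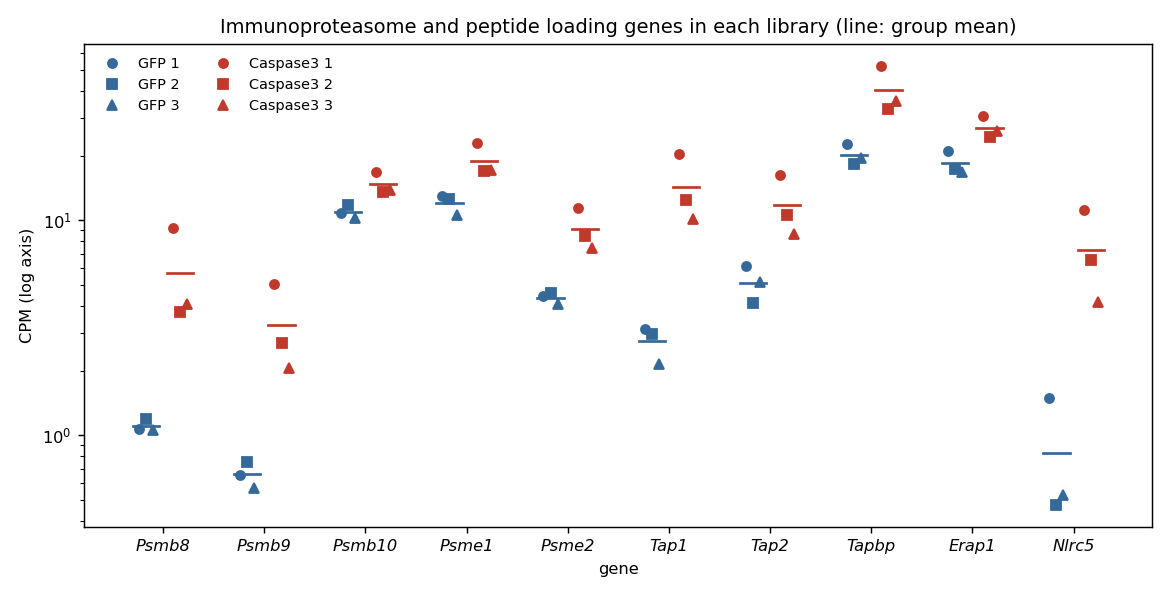
CPM on a log axis for the 10 members (horizontal axis) in each of the 6 libraries, GFP in blue and Caspase3 in red, with the symbol shape giving the replicate number and a line at the group mean. For every gene the 3 red symbols lie above the 3 blue ones, and Caspase3 1 (red circle) is the highest.

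Among the catalytic subunits, Psmb8 and Psmb9 rose and Psmb10 did not pass. Psmb8, the inducible subunit that takes the place of Psmb5, stood at 9.19, 3.73 and 4.10 CPM in Caspase3 libraries 1, 2 and 3 and at 1.07, 1.19 and 1.05 CPM in GFP libraries 1, 2 and 3. The GFP libraries were close together and low, while Caspase3 1 was well above the other Caspase3 libraries. The difference was 5.10-fold (log2 fold change 2.35 ± 0.37, adjusted p = 0.0162). Psmb9, which takes the place of Psmb6, stood at 5.07, 2.68 and 2.05 CPM against 0.652, 0.752 and 0.571 CPM, and rose 4.89-fold (2.29 ± 0.38, adjusted p = 0.0198). These levels rest on few reads, 13 to 19 counts of Psmb9 and 23 to 30 counts of Psmb8 in a GFP library. Psmb10, which takes the place of Psmb7, was already at 10.8, 11.7 and 10.2 CPM in the GFP libraries and at 16.8, 13.6 and 13.9 CPM in the Caspase3 libraries. Its groups did not overlap, but the difference of 1.35-fold did not pass (0.43 ± 0.13, adjusted p = 0.239, and 0.176 to 0.556 over the 16 alternatives).

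The standard barrel gave no call in either direction. Of 14 standard 20S subunits (Psma1 to Psma7 and Psmb1 to Psmb7), none rose or fell in edgeR, 1 (Psmb6) had an unadjusted p under 0.05, and the median log2 fold change was 0.03, with a range of -0.09 to 0.28. No alternative fit called any of them, DESeq2 and limma-voom included. Psmb1, with the highest mean CPM of the list, stood at 65.8 ± 3.91 and 65.4 ± 9.63 CPM (SD, n = 3 each). Psmb5 stood at 27.4, 24.5 and 26.0 CPM in the Caspase3 libraries and at 20.5, 25.1 and 25.8 CPM in the GFP libraries, so the groups overlapped (0.13 ± 0.12, adjusted p = 0.764). Psmb6 (0.28 ± 0.12, adjusted p = 0.444) and Psmb7 (0.14 ± 0.09, adjusted p = 0.675) overlapped as well. The 18 subunits of the 19S regulator, which recognises ubiquitinated proteins, gave no call (median 0.01; none had an unadjusted p under 0.05), with Psmd2, which had the highest mean CPM, at 207.6 ± 9.03 and 216.6 ± 13.6 CPM (SD, n = 3 each). The 11 other activators and assembly factors gave none either (median -0.01; none under an unadjusted 0.05). Among them Psme3, the nuclear relative of Psme1 and Psme2, stood at 97.8 ± 2.11 and 98.4 ± 3.56 CPM (SD, n = 3 each), with a log2 fold change of -0.01.

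**Figure D2:**
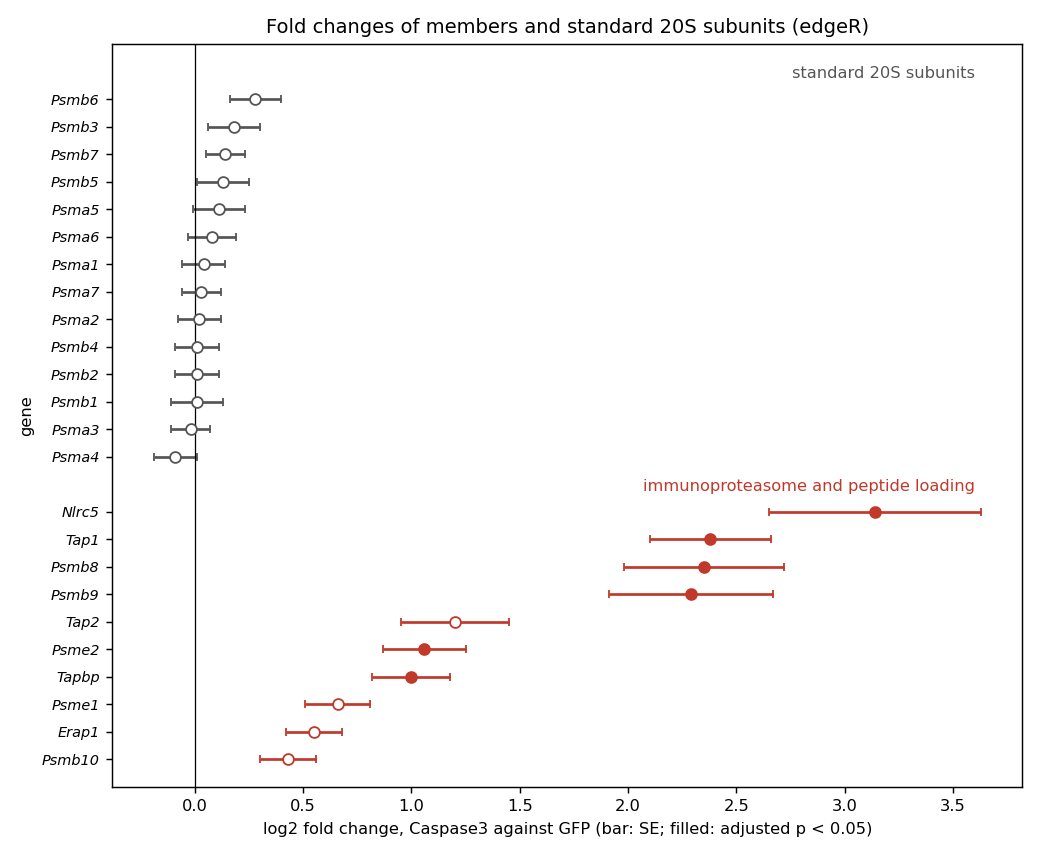
Log2 fold change of Caspase3 against GFP (horizontal axis, bars are SE) for the 10 members in red and the 14 standard 20S subunits in grey, with filled symbols for adjusted p under 0.05. The standard subunits lie between -0.09 and 0.28 and all are open; the members lie between 0.43 and 3.14 and 6 are filled.

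The ratio of each inducible subunit to its standard counterpart was taken within a library from the deposited FPKM (counts divided by gene length and library size), which compares genes per length. Psmb8 amounted to 11.0%, 5.0% and 5.19% of Psmb5 in the Caspase3 libraries and to 1.72%, 1.56% and 1.34% in the GFP libraries. Psmb9 amounted to 7.40%, 4.72% and 3.37% of Psmb6 against 1.35%, 1.31% and 1.20%. Both ratios were thus low in every library and higher in each Caspase3 library than in any GFP library. Psmb10 amounted to 77.9%, 68.2% and 61.5% of Psmb7 against 57.8%, 56.9% and 53.6%, a much larger share from the outset. The group difference of the log2 ratio was 2.10 for Psmb8 to Psmb5, 1.93 for Psmb9 to Psmb6 and 0.30 for Psmb10 to Psmb7. An exact two-sided permutation test gave p = 0.1 for each, the smallest value that 3 against 3 libraries allow, and 0.1 after adjustment over the 5 ratios examined. The percentages depend on the gene lengths of the deposited table (2736 bases for Psmb8 and 899 for Psmb5, for example), which cancel in the group differences.

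**Figure D3:**
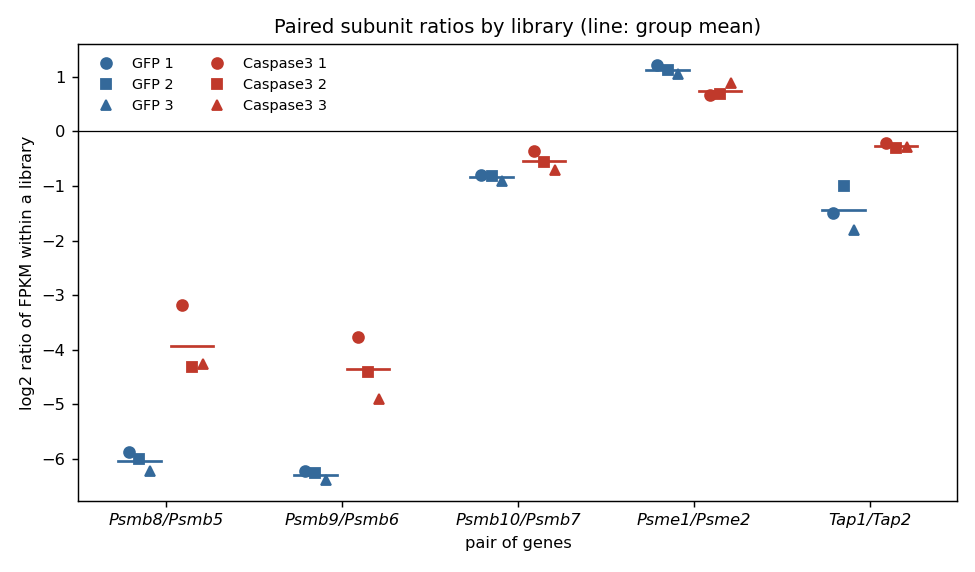
Log2 ratio of the FPKM of 2 genes within a library (vertical axis) for 5 pairs, GFP in blue and Caspase3 in red, symbol shape by replicate number and a line at the group mean. The ratios of Psmb8, Psmb9 and Psmb10 to their counterparts and of Tap1 to Tap2 are higher in each Caspase3 library than in any GFP library, and that of Psme1 to Psme2 is lower. Psme2b is not counted in the ratio of Psme1 to Psme2.

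Of the activator ring, Psme2 rose and Psme1 did not pass. Psme2, its beta subunit, stood at 11.5, 8.41 and 7.45 CPM in the Caspase3 libraries and at 4.43, 4.59 and 4.08 CPM in the GFP libraries (2.08-fold, log2 fold change 1.06 ± 0.19, adjusted p = 0.0277). Psme1, its alpha subunit, stood at 22.8, 16.9 and 17.2 CPM against 12.9, 12.5 and 10.6 CPM (1.58-fold, 0.66 ± 0.15, adjusted p = 0.0933). Per length Psme1 exceeded Psme2 in every library, 1.59-fold, 1.61-fold and 1.84-fold in the Caspase3 libraries and 2.33-fold, 2.18-fold and 2.07-fold in the GFP libraries. The log2 ratio of Psme1 to Psme2 was therefore lower by 0.39 in the Caspase3 group (exact permutation p = 0.1). The value of Psme2 is uncertain, because the gene Psme2b on chromosome 11 has a transcript that matched it at 99.4% identity over 794 bases, and the counting may divide reads between the 2. Psme2b stood at 7.15, 4.55 and 4.50 CPM against 4.43, 3.48 and 4.26 CPM and did not pass (0.41, adjusted p = 0.578). The summed level of both genes was 14.5 ± 3.6 against 8.43 ± 0.394 CPM (SD, n = 3 each), a ratio of means of 1.72.

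Tap1 had the smallest adjusted p of the members. Tap1, an ATP-driven subunit of the peptide transporter, stood at 20.3, 12.5 and 10.2 CPM in the Caspase3 libraries and at 3.12, 2.97 and 2.15 CPM in the GFP libraries, a 5.19-fold rise (log2 fold change 2.38 ± 0.28, adjusted p = 0.00489). Its partner Tap2 stood at 16.2, 10.6 and 8.60 CPM against 6.10, 4.12 and 5.18 CPM and missed the threshold (2.30-fold, 1.20 ± 0.25, adjusted p = 0.0561). Tap2 passed with library totals (0.0446), without Caspase3 3 (0.0333), with DESeq2 and with edgeR on unfiltered counts, and its adjusted p reached 0.248 without GFP 2. The ratio of Tap1 to Tap2 per length was 0.864, 0.812 and 0.817 in the Caspase3 libraries and 0.353, 0.498 and 0.287 in the GFP libraries. Per length the transcripts of the transporter's partners were thus closer to equal in the Caspase3 group. How near to equal they come depends on the gene lengths of the deposited table (5476 bases for Tap1 and 3781 for Tap2). These lengths cancel in the group difference of the log2 ratio, which was 1.17 (exact permutation p = 0.1). Tap1 and Psmb9 share 212 exonic bases on opposite strands, 3.87% of the exonic bases of Tap1 and 5.79% of those of Psmb9, and whether reads were assigned by strand is not known here, so some reads could belong to the other gene.

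Of the genes that act inside the endoplasmic reticulum, Tapbp rose and Erap1 did not pass. Tapbp, the chaperone that bridges the transporter and class I molecules, stood at 52.2, 33.0 and 35.9 CPM in the Caspase3 libraries and, in the GFP libraries, at 22.6, 18.3 and 19.5 CPM (2.0-fold, 1.0 ± 0.18 on the log2 scale, adjusted p = 0.026). It shares 4.11% of its exonic bases with Zbtb22 on the same strand and 24.9% with Gm19412 on the opposite strand. Psmb8 shares 14.7% of its exonic bases with Gm20496 and Tap2 shares 14.1% with Gm15821, both on the opposite strand. The effect of these overlaps on the counts was not tested. Erap1, which trims peptides to the length that class I molecules hold, stood at 30.5, 24.3 and 26.2 CPM against 21.1, 17.3 and 16.8 CPM (1.47-fold, 0.55 ± 0.13, adjusted p = 0.106). Its groups were separated by a narrow margin, and 11.5% of its exonic bases overlap Cast on the opposite strand. Erap1 passed with DESeq2 (0.0302) and with edgeR on unfiltered counts (0.00922), and its adjusted p reached 0.361 without GFP 2.

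Nlrc5 had the largest fold change of the members. It stood at 11.1, 6.50 and 4.18 CPM in the Caspase3 libraries and at 1.49, 0.475 and 0.527 CPM in the GFP libraries, and rose 8.81-fold (log2 fold change 3.14 ± 0.49, adjusted p = 0.0151). The GFP values rest on 32, 12 and 12 counts, and without GFP 1, the highest of the 3, the log2 fold change was 3.84. Nlrc5 shares 78 exonic bases with the noncoding RNA 9330175E14Rik on the opposite strand, 0.918% of its own exonic bases. That RNA had a log2 fold change of 4.25, larger than that of Nlrc5, on a total of 85 counts. Whether reads of 1 were counted for the other was not tested. The class II transactivator Ciita, a relative of Nlrc5, had a mean of 1.28 CPM in the Caspase3 and 1.32 CPM in the GFP group (-0.04 on the log2 scale, adjusted p = 0.973). The DNA-binding proteins through which Nlrc5 is known to reach class I promoters had log2 fold changes of 0.10 (Rfx5), -0.02 (Rfxap) and 0.34 (Rfxank), none of which passed (adjusted p = 0.86, 0.964 and 0.651).

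Ordered by level per length, the GFP group ran from Psmb10 (6.39 ± 0.477 FPKM, SD, n = 3), Tapbp (6.11 ± 0.661) and Psme1 (5.43 ± 0.579) through Erap1 (2.53 ± 0.322), Psme2 (2.48 ± 0.159) and Tap2 (1.36 ± 0.258) to Tap1 (0.502 ± 0.0966), Psmb8 (0.404 ± 0.0288), Psmb9 (0.180 ± 0.0258) and Nlrc5 (0.0977 ± 0.0671). The ranges of neighbours overlapped from Psmb10 to Psme1, between Erap1 and Psme2, between Tap1 and Psmb8 and between Psmb9 and Nlrc5, so those neighbours could not be ordered. In the Caspase3 group Tapbp was first at 12.1 ± 3.02 FPKM, clear of Psmb10 (8.56 ± 0.955) and Psme1 (8.49 ± 1.42), which overlapped. Psme2 (5.11 ± 1.14) was clear of both its neighbours, and from Erap1 (3.67 ± 0.400) through Tap2 (3.09 ± 1.01), Tap1 (2.58 ± 0.938), Psmb8 (2.05 ± 1.09), Psmb9 (0.883 ± 0.424) and Nlrc5 (0.847 ± 0.406) each range overlapped the next. The order in either group also depends on the gene lengths of the deposited table, such as 2736 bases for Psmb8, 3659 for Psmb9 and 1705 for Psmb10. The 4 members lowest in the GFP group, Tap1, Psmb8, Psmb9 and Nlrc5, were also the 4 with the largest fold changes, and both statements use the same GFP values.

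Other steps of the class I pathway were read as lists. Of 10 partners of the loading complex, 1 rose and 9 did not pass, with a median log2 fold change of 0.12. The riser was B2m, the light chain of every class I molecule, at 250.5, 174.5 and 171.4 CPM against 67.7, 57.4 and 35.8 CPM (3.71-fold, 1.89 ± 0.24, adjusted p = 0.00569). The chaperones Calr and Canx and the disulfide isomerase Pdia3, which assist loading and also fold many other glycoproteins, had log2 fold changes of 0.09, -0.10 and 0.12. Tapbpl, a peptide editor related to tapasin, was at 0.59 (adjusted p = 0.303). None of 7 cytosolic and endosomal peptidases passed in edgeR, 1 (Lap3) had an unadjusted p under 0.05, and the median was 0.03, with Npepps, which had the highest mean CPM, at 242.7 ± 18.8 and 251.7 ± 14.6 CPM (SD, n = 3 each). Of 15 regulators of class I genes, 4 rose, none fell and the median was 0.30. Among them were the interferon signal transducers Stat2 (2.63-fold, 1.39 ± 0.18, adjusted p = 0.00621) and Irf9 (4.87-fold, 2.28 ± 0.28, 0.00569), and the transcription factor Irf1 (log2 fold change 1.37, adjusted p = 0.019). None of Stat2, Irf9 and B2m passed without GFP 2 (adjusted p = 0.0562 to 0.0585), nor did any other gene of these lists in that fit. The log2 fold changes of Stat2, Irf9 and B2m were then 1.36, 2.16 and 1.94.

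Markers of cell types were read beside the members, because more cells that express a gene and more RNA per cell cannot be told apart in bulk tissue. Of 6 microglia markers 4 rose, with a median log2 fold change of 0.78, among them Aif1 (2.54-fold, adjusted p = 0.0191), Csf1r (1.60-fold, 0.0414) and Cx3cr1 (log2 fold change 0.61, 0.0425). P2ry12, a receptor that marks resting microglia, stood at a log2 fold change of 0.17 (adjusted p = 0.588). The summed microglia markers ranged from 406.5 to 547.1 CPM in the Caspase3 libraries and from 274.8 to 319.6 CPM in the GFP libraries, with Caspase3 1 the highest. Of 5 T and NK cell markers, the 2 that could be tested rose, Cd3e (6.68-fold, adjusted p = 0.0195) and Cd8a (7.94-fold, 0.0204), with a sum of 2.41 to 4.69 against 0.307 to 1.03 CPM and Cd3d at 0 in all GFP libraries. Neither set was called without GFP 2 or without GFP 3, and Cd3e also lost its call in each of the other 4 fits that left out 1 library (adjusted p = 0.0519 to 0.121 over all 6); without Caspase3 2 Cd8a lost its call too. Of the microglia markers, 3 passed without Caspase3 1 and 2 without Caspase3 2, without Caspase3 3 or without GFP 1. None of 3 border macrophage markers passed in the fit over all 6 libraries (sum 32.8 to 68.7 against 16.4 to 33.5 CPM); the log2 fold change of Mrc1 was 1.07 (adjusted p = 0.145), and 2 of the 3 had an unadjusted p under 0.05. Mrc1 passed without Caspase3 2 (0.0492) and with DESeq2 (0.00196), and 2 of the 3 passed with edgeR on unfiltered counts. None of the 4 astrocyte, 3 oligodendrocyte, 3 endothelial or 4 excitatory neuron markers passed in edgeR (medians 0.15, 0.23, 0.04 and 0.00); of these 14 genes 1, Mog, had an unadjusted p under 0.05. The astrocyte, endothelial and neuronal genes with the highest mean CPM had log2 fold changes of -0.05 (Slc1a3), -0.12 (Flt1) and -0.27 (Snap25, not limited to excitatory neurons). The 2 tested dendritic cell markers did not pass (Zbtb46 at 0.12, neither under an unadjusted 0.05), and B and plasma cell markers were too low to test. Kl, the 1 choroid plexus marker tested, was at 10.9 ± 4.93 against 5.07 ± 0.376 CPM (SD, n = 3 each; adjusted p = 0.188), and passed without Caspase3 1 (log2 fold change 1.43, adjusted p = 0.00314), without both Caspase3 1 and GFP 3 (0.0031), with DESeq2 (0.0119) and with edgeR on unfiltered counts (8.24e-05). None of the 4 striatal markers passed in the fit over all 6 libraries, though all 4 were called lower with edgeR on unfiltered counts; 3 had an unadjusted p under 0.05, Drd1 was at -1.10, and their sum was 16.3 to 34.7 against 22.9 to 215.5 CPM. The part that cell composition has in the rise of the members was not tested.

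The genes with the profile most like the mean of the 10 members over the 6 libraries were found by the root mean square difference of centred log2 CPM, among other genes whose mean reached 1 CPM, predicted genes (Gm and Rik names) left out. They were Mpeg1 (difference 0.074), a pore-forming protein of macrophages, Ly86 (0.105), a partner of a Toll-like receptor relative, Dock8 (0.109), a regulator of the leukocyte cytoskeleton, Stat2 (0.111), and Spi1 (0.112), the myeloid transcription factor PU.1. The members themselves lay farther from their own mean than these, between 0.199 (Tap2) and 0.919 (Nlrc5), since their fold changes differ in size. Mpeg1 stood at 172.1, 111.1 and 108.5 CPM in the Caspase3 libraries and at 57.3, 44.3 and 39.1 CPM in the GFP libraries (2.78-fold, adjusted p = 0.00779). As in the members, Caspase3 1 was the highest library. This likeness is a description over 6 libraries in 2 groups, and a shared difference between the groups is most of it.

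The plot of adjusted p by gene and fit shows how far each call depended on the fit. Tap1 passed in 15 of 16 alternatives, failing without GFP 2 (adjusted p = 0.0562). Nlrc5 passed in 13, Tapbp in 12, and Psmb8, Psmb9 and Psme2 in 11 each. Tap2 passed in 4, Psme1 and Erap1 in 2 each and Psmb10 in none. The fit with a block on sample number is not among the 16. In it Tap2 (edgeR adjusted p = 0.0126), Psme1 (0.0426) and Erap1 (0.0418) passed as well, and Psmb10 did not (0.22). DESeq2 called 9 members higher, all but Psmb10, where 1.87% of all genes were called higher, and so did edgeR on unfiltered counts (2.10%). Limma-voom called 4, Psme2, Tap1, Tapbp and Nlrc5 (1.29%), and limma on log2(FPKM + 1) called 2, Psme2 and Tap1 (0.957%). The 6 calls were the same with DESeq2 size factors (1.51%), upper-quartile factors (1.51%), a stricter filter of 1 CPM in 3 libraries (1.62%) and limma on log2(FPKM + 0.1) (1.22%). With library totals 7 passed, Tap2 being added (1.73%), as it was without Caspase3 3 (1.23%), and without Caspase3 2 Psme2 was lost and 5 passed (1.19%). Without both Caspase3 1 and GFP 3, a fit chosen after the data were seen, 5 of the 6 passed (1.54%), and Psme2 did not (adjusted p = 0.0715). In that fit the median log2 fold change of the members was 0.86.

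**Figure D4:**
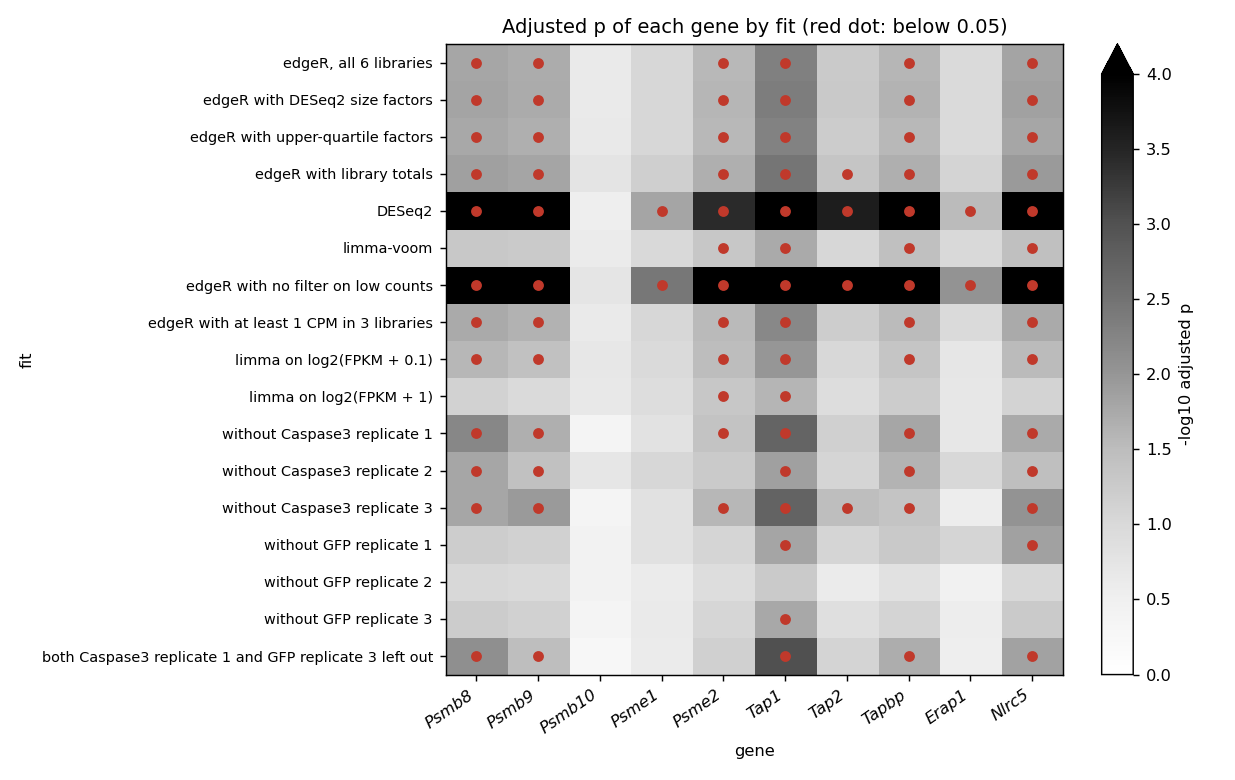
Adjusted p on a -log10 grey scale for each of the 10 members (columns) in the fit over all 6 libraries and in 16 alternatives (lines of cells), with a red dot where it is below 0.05. The fit with a block on sample number is not drawn. Psmb10 has no dot in any fit, the fit without GFP replicate 2 has none for any gene, and Tap1 has dots in all other fits.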

How the data were processed

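Per the submitters' processing notes, the tools were HISAT2, featureCounts and DESeq2 and the genome mm10 (GRCm38), without roles, versions or settings. Per the labels' protocols, TRIzol RNA was made into libraries with a kit that marks the second strand. Use of strand in counting: not given in the sources used here. In the deposited table are whole-number read counts per gene. The deposited FPKM, per the file headers and values, equal counts over gene length and 1 constant per library (95.6% to 105.6% of its total).

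Counts were tested in R 4.3.3 with edgeR 4.0.16 (genes kept by filterByExpr, TMM, glmQLFit, glmQLFTest, intercept and group, 6 libraries), with Benjamini-Hochberg adjustment over 16721 genes; on simulated counts recovery was lowest for the smallest change, and the share of false calls was above the threshold of 0.05. SEs of log2 fold changes were taken as size over the square root of F. FPKM were used for levels per length and for ratios. Alternatives were other scalings, DESeq2 1.42.0, limma-voom (limma 3.58.1), limma on log2(FPKM + 0.1) and log2(FPKM + 1), other filters, a block on sample number and each library left out. No pair of libraries in a group agreed within counting error (mean chi-square per gene 12.6 to 32.8). Near-identical transcripts (at least 90% identity over 200 bases) were sought with BLAST 2.17.0 in GENCODE M21, exon overlaps in the same annotation. Figures were drawn with Matplotlib 3.10.9.

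Members and lists were chosen with earlier results of these data known. The text names all members, Psmb5, Psmb6, Psmb7, Gad2, up to 3 called genes per other list (or the one with the highest mean CPM if none) and the 5 nearest profiles. H2-K1, Ciita, Rfx5, Rfxap, Rfxank, Calr, Canx, Pdia3, Tapbpl, Irf1, Cx3cr1, P2ry12, Lap3, Mog, Cd3d and Psme2b were named after their values were seen. Some list genes that the rule would name are not reported here.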

Additional observations from a re-analysis of the deposited data

How the results depend on the processing

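All 10 members kept a positive log2 fold change in each of the 17 alternatives. Each of the 5 ratios kept its sign in the 8 alternatives tried for ratios. Among those 8, counts per kilobase could not change a ratio, because the constant of a library cancels within it. The number of members called higher, 6, was 2 with limma on log2(FPKM + 1), and 0 to 7 when 1 library was left out (0 without GFP 2, 1 without GFP 3, 2 without GFP 1). Over all genes, 255 were called higher and 19 lower; DESeq2 called 397 and 98, edgeR on unfiltered counts 663 and 250, and limma on log2(FPKM + 1) 160 and 10. Leaving out 1 library gave 15 to 252 higher and 2 to 33 lower (15 and 2 without GFP 2). Without both Caspase3 1 and GFP 3, 77 were lower. The causes were not tested. With the replicate block 9 members (all but Psmb10) and 2 of 3 border macrophage markers passed. In that fit 378 genes (2.26%) were higher and 43 lower. Sample titles do not say that the numbers pair libraries, so the numbers were not taken as pairs. Deviations from the group mean correlated across genes at 0.065, 0.178 and 0.027 for same-numbered libraries and at -0.142 to 0.079 for the others. With 3 libraries per group these correlations do not settle whether the numbers mark pairs. Left-out libraries gave ratio differences of 1.73 to 2.30 (Psmb8 to Psmb5), 1.63 to 2.20 (Psmb9 to Psmb6), 0.21 to 0.38 (Psmb10 to Psmb7), -0.46 to -0.34 (Psme1 to Psme2) and 0.99 to 1.38 (Tap1 to Tap2). Psme2b is not counted in these values of Psme1 to Psme2. Depth limits Psmb9 and Nlrc5 most, with 12 to 32 counts in a GFP library.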
